A study of Mus musculus with 168 samples.

Results

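Wild-type mouse cortex was compared between 6 and 2 months of age. The libraries were those titled as wild type (WT) at 6 months and at 2 months, 8 at each age, which made 16 of the 168 libraries of a series on mice carrying knocked-in CAG repeats in Htt, the gene of Huntington's disease. The WT mice were C57BL/6 animals without a knock-in allele, 4 females and 4 males at 6 months and 4 females and 4 males at 2 months, described as littermates of knock-in mice and housed with heterozygous Q20 mice at both ages. No treatment is given. Beside them, 8 cortex libraries each of heterozygous Q20 knock-in mice at 6 and 2 months (the Q20 allele holds the shortest repeat of the series, and these mice were housed together with their own genotype), and of WT and Q20 mice at 10 months, were used. PolyA-selected RNA was sequenced, and levels are given as CPM, estimated counts brought to one library size by the trimmed mean of M-values (TMM).

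The mouse cortex has left its main phase of growth behind by 2 months, but some of its cell populations go on maturing in the young adult. Oligodendrocyte precursors divide and pass through a short-lived committed stage, marked by the receptor Gpr17 and the enzyme Enpp6, before they make myelin. Newborn and growing neurons carry high levels of cytoskeletal proteins of axon outgrowth, such as Marcksl1, Dpysl3 and Stmn2, which decline as circuits settle. Complement, interferon-induced and antigen-presenting genes are known to rise in glia over the life of a mouse.

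The 16 libraries held between 29338689 and 44472178 estimated counts, with medians of 35700031 at 6 months and 31401082 at 2 months. Xist, which is transcribed from the inactive X chromosome, was at 542 to 1260 CPM in the females and 0.336 to 1.18 CPM in the males, and Ddx3y, on the Y chromosome, at no more than 0.0841 CPM in the females and 59.9 to 67.7 CPM in the males. Markers of upper and deep cortical layers were present at both ages, with Cux2 at 89.8 to 120 CPM at 6 months and 89.5 to 113 CPM at 2 months. A pair of libraries stood apart. Female 1 of 2 months held the liver transcript Alb at 136 CPM, against at most 0.0338 CPM in the other 7 of that age. At 6 months Alb was at 17.3 to 20.6 CPM in female 1, female 2 and male 1 and at 0.0561 to 1.58 CPM in the other 5, so that every 6-month library lay above those 7. Female 2 of 2 months had a median correlation of 0.9786 with the other libraries, against 0.9883 to 0.9921 for the rest, and the lowest level of Htt, at 132 CPM. The numbers that open the library names, whose meaning the labels do not give, do not overlap between the ages, so that whatever they stand for cannot be told apart from age. The labels do not state that replicates are separate animals, and the p-values measure only the spread between these libraries, of which the biological coefficient of variation was 0.106.

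Few genes were called between the ages with all 16 libraries. Of 16595 genes tested, 14 (0.0844%) passed an adjusted p of 0.05 in edgeR's quasi-likelihood test with sex as a covariate. At 6 months, 8 genes were higher (0.0482% of those tested) and 6 were lower (0.0362%). The genes that rose were Abca8a, Spag6, C4b, Zc3hav1, Pcdhb9, Il33 and Gatm and a gene without a symbol, ENSMUSG00000070357. Those that fell were Top2a, Gpx8, Met, Rnf122, Marcksl1 and Gpr17. The changes were small, between 0.26 and 0.85 on the log2 scale, and reached 0.5 in 7 genes. The median log2 change of all genes was -0.001, and 49.6% of genes had a positive change. At an unadjusted p under 0.05 stood 1225 genes, of which 619 were higher (3.73%) and 606 lower (3.65%). These shares are the background for the counts of WT list members at that threshold below. Without females 1 and 2 of 2 months, 59 of 16715 genes were called, 40 of them higher and 19 lower, and all 14 were among them. In that fit 2149 genes had an unadjusted p under 0.05. Under limma on log2 FPKM with a pseudocount of 0.1, 5 were called higher and 2 lower.

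**Figure D1:**
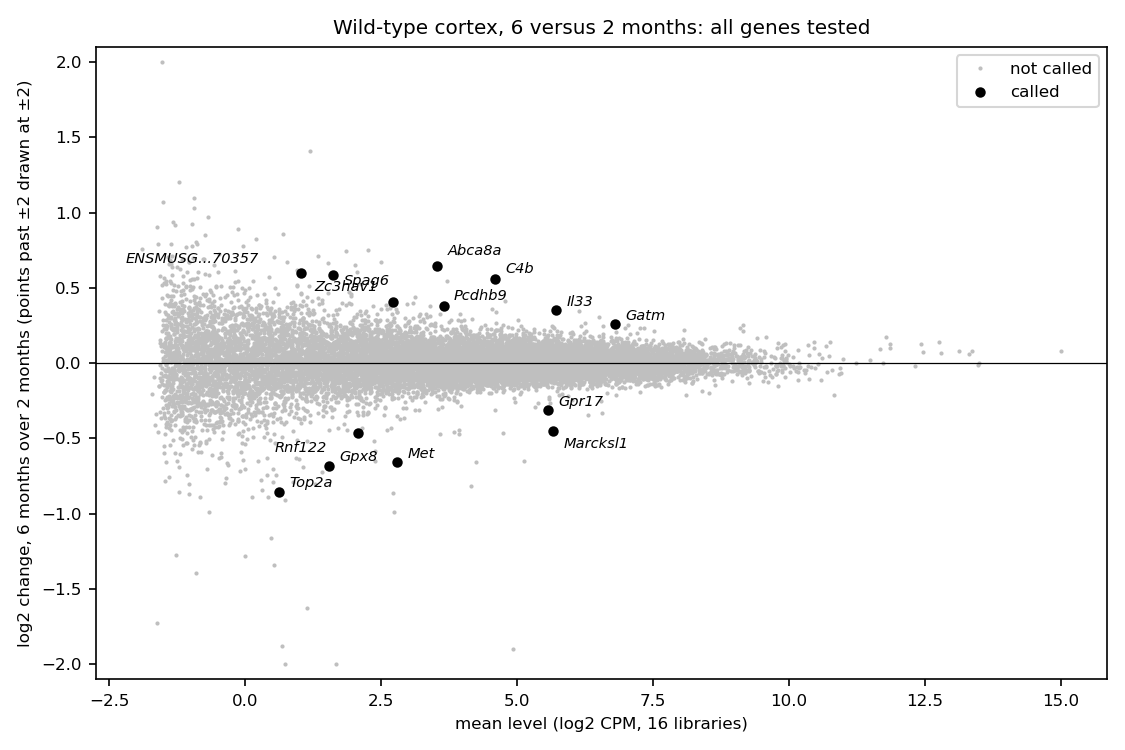
Log2 change (6 months over 2 months, vertical axis) against the mean level (log2 CPM over the 16 WT libraries, horizontal axis) for each of the 16595 genes tested. Black points are the 14 called genes, which lie between -0.85 and 0.65, while the cloud of other genes centres on a median of -0.001.

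Levels of 11 genes did not overlap between the ages, 8 with every 6-month library above every 2-month library (0.0482% of genes tested) and 3 with every 6-month library below (0.0181%). Among the called genes these were Gatm, Il33, Pcdhb9 and Zc3hav1, with 4 higher, and Gpx8, Gpr17 and Rnf122, with 3 lower. The others, Plekhb2, Exoc3l4, Cbx7 and Grid2ip, were not called in the 16 libraries. Grid2ip, a partner of the delta glutamate receptor, had 4.26 to 5.72 CPM at 6 months and 1.77 to 4.23 CPM at 2 months, with a log2 change of 0.60 ± 0.13 (SE, adjusted p = 0.127). Its lowest library was female 2 of 2 months, and without females 1 and 2 of that age it was called, at 0.56 ± 0.09 (adjusted p = 0.015). Exoc3l4 had 1.26 to 2.24 CPM at 6 months and 0.845 to 1.24 CPM at 2 months, and a log2 change of 0.57 ± 0.14 (adjusted p = 0.259). Cbx7, a Polycomb protein, had 73.3 to 79.9 CPM at 6 months and 63.8 to 71.5 CPM at 2 months, a log2 change of 0.15 ± 0.04 (adjusted p = 0.254).

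Among the genes that rose, a first group belongs to metabolism and lipid transport. Gatm makes guanidinoacetate, the first step of creatine synthesis. It was at 113 to 126 CPM (median 121) in 6-month cortex and 95.1 to 104 CPM (median 99.6) in 2-month cortex. Every 6-month library stood above every 2-month library. It changed by 0.26 ± 0.04 on the log2 scale (SE, n = 8 and 8, adjusted p = 0.00763), 1.2-fold, under the identifier ENSMUSG00000027199 at chr2:122594467-122611303 (positions throughout are those of GENCODE M21 on GRCm38).

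Abca8a encodes a lipid transporter of the ABC family (ENSMUSG00000041828, chr11:110025634-110095978). It had 10.1 to 16.2 CPM (median 14.2) at 6 months and 7.04 to 10.8 CPM (median 8.68) at 2 months, and 7 of the 8 older libraries stood above all younger ones. The log2 change of 0.65 ± 0.09 was the highest among the called genes (1.57-fold, adjusted p = 0.00763). The exception among the older libraries was male 2, at 10.1 CPM.

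The immune genes that rose were a complement factor, a cytokine and an antiviral protein. C4b, a complement component that tags targets for clearance (ENSMUSG00000073418, chr17:34728380-34743882), had 21.4 to 35.7 CPM (median 27.5) at 6 months and 16.7 to 26.8 CPM (median 18.4) at 2 months. The groups overlapped through a single 2-month library: female 1, the one with liver transcripts, had 26.8 CPM, and the other 7 had 16.7 to 19.5 CPM. The log2 change was 0.56 ± 0.10 (adjusted p = 0.0369), and 0.61 (adjusted p = 0.0206) without females 1 and 2 of 2 months. The call held in 4 of 16 fits that each left out a library, with adjusted p from 0.0161 to 0.102. Liver is a known source of C4b transcripts. At 6 months, Alb was at 17.3 to 20.6 CPM in female 1, female 2 and male 1. C4b was at 35.7, 27.6 and 27.3 CPM in these libraries, in that order. In the other 6-month libraries, with Alb at 0.0561 to 1.58 CPM, C4b was at 21.4 to 33.3 CPM. The part of liver RNA in these levels was not tested. The estimated counts of C4b were not whole in any of the 16 libraries, as arises where reads are shared with another gene, and its near copy C4a makes its level uncertain.

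Il33 encodes an alarm cytokine that oligodendrocytes and astrocytes keep in their nuclei (ENSMUSG00000024810, chr19:29925114-29960718). It was at 52.4 to 67.5 CPM (median 57.2) at 6 months and 42.8 to 52.2 CPM (median 45.1) at 2 months. No older library fell within the range of the younger ones, although the lowest older and the highest younger library, both from males, lay close together. Its log2 change was 0.35 ± 0.06 (adjusted p = 0.0121).

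Zc3hav1 encodes an antiviral protein that binds CpG-rich RNA (ENSMUSG00000029826, chr6:38305286-38354603). It had 6.44 to 8.46 CPM (median 7.37) at 6 months and 5.03 to 6.42 CPM (median 5.54) at 2 months, again without overlap. It differed on the log2 scale by 0.41 ± 0.06 (adjusted p = 0.0121), and its estimated counts were not whole in any of the 16 libraries.

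Of the remaining genes that rose, Pcdhb9 and Spag6 have roles in cell contact and cilia, and 1 has no symbol. Pcdhb9, a clustered protocadherin that lets neurons recognise each other (ENSMUSG00000051242, chr18:37400855-37403909), had 13.2 to 16 CPM (median 13.7) at 6 months and 9.02 to 11.9 CPM (median 10.9) at 2 months. The ages did not overlap, and the log2 change was 0.38 ± 0.06 (adjusted p = 0.0113). Its counts were not whole in any library either, and reads of such near-identical cluster genes can be split between them. Spag6, a protein of the central apparatus of motile cilia (ENSMUSG00000037708, chr2:18694032-18750413), had 2.78 to 4.37 CPM (median 3.58) at 6 months and 2.03 to 2.85 CPM (median 2.39) at 2 months. It was above all younger libraries in 7 of 8 older ones, with a log2 change of 0.59 ± 0.10 (adjusted p = 0.0162, and up to 0.0547 with single libraries left out; the call was lost without female 3 or male 4 of 2 months or female 3 of 6 months). ENSMUSG00000070357 had 1.89 to 2.81 CPM (median 2.39) at 6 months and 1.11 to 2.01 CPM (median 1.57) at 2 months, a log2 change of 0.60 ± 0.10 (adjusted p = 0.0158). It lost its call without female 3 of 2 months or female 1 of 6 months (adjusted p up to 0.0513).

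**Figure D2:**
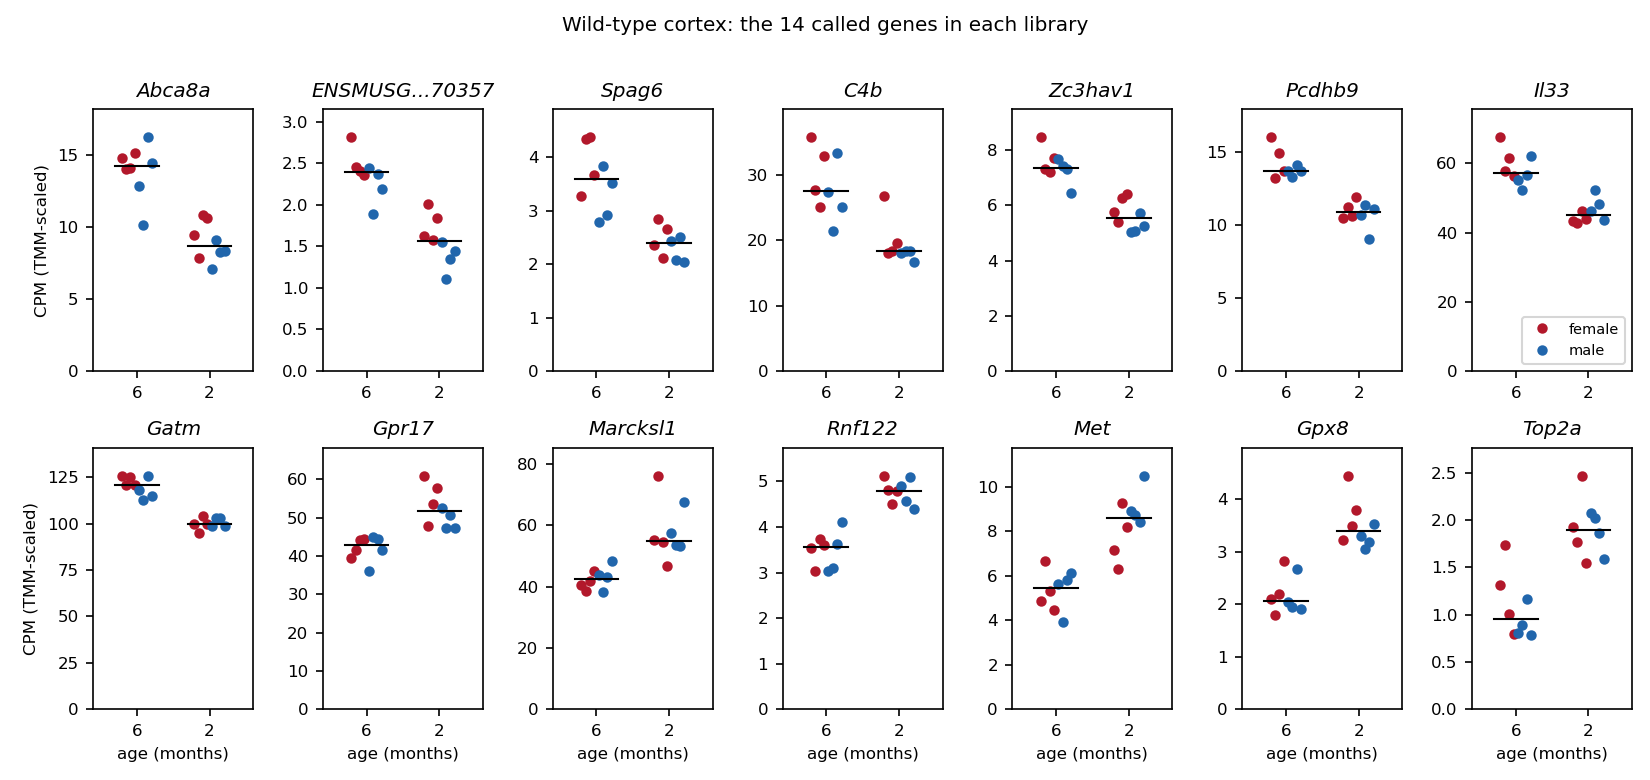
CPM of the 14 called genes in each WT library at 6 months (left in each panel) and 2 months (right), with females in red, males in blue and a line at the median. Gatm lies between 113 and 126 CPM at 6 months and between 95.1 and 104 CPM at 2 months, while C4b overlaps through the 2-month female at 26.8 CPM.

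Among the genes that fell, Gpr17 marks the committed stage between oligodendrocyte precursor and myelinating cell (ENSMUSG00000052229, chr18:31942997-31949636). It was at 36.0 to 44.9 CPM (median 42.8) at 6 months and 47.2 to 61.0 CPM (median 51.7) at 2 months. All 8 older libraries were below all younger ones. Its log2 change was -0.32 ± 0.06 (0.804-fold, adjusted p = 0.0313). With single libraries left out, it was called in 5 of 16 fits, with adjusted p from 0.00624 to 0.0967. In RNA from whole tissue, fewer cells of a type and less RNA per cell cannot be told apart.

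Gpr17 was 1 of 11 tested markers of newly formed oligodendrocytes, of which 10 had a negative log2 change, with a median of -0.103. It was the only one called, and 3 others had a lower level at an unadjusted p under 0.05. Enpp6, a choline phosphodiesterase of the same stage, had 3.76 to 5.06 CPM at 6 months and 4.18 to 6.96 CPM at 2 months, with a log2 change of -0.30 ± 0.10 (adjusted p = 0.52). The values of the other pair were -0.18 ± 0.08 for Cnksr3, a scaffold protein, and -0.10 ± 0.04 for Fyn, a kinase that promotes myelination. The summed level of the list ran from 442 to 472 CPM at 6 months and from 458 to 486 CPM at 2 months.

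Markers on either side of that stage had mixed signs. None of 11 precursor markers was called, and their median was 0.004 (-0.004 without females 1 and 2 of 2 months); Neu4, a sialidase, was lower at an unadjusted p of 0.012 (log2 change -0.19 ± 0.07), and Pdgfra, the growth factor receptor that defines precursors, had a log2 change of 0.03. None of 24 markers of myelinating oligodendrocytes was called, with a median of -0.073, or -0.023 without females 1 and 2 of 2 months. At an unadjusted p under 0.05, 8 of them were lower and 2 higher, or 7 lower and 4 higher without that pair. Of all genes, 3.65% were lower and 3.73% higher with all libraries, and 2149 of 16715 stood there without the pair. Mog, a protein of the outer myelin surface, had 41.0 to 50 CPM at 6 months and 49.2 to 63.2 CPM at 2 months (log2 change -0.26 ± 0.05, adjusted p = 0.0785). Cldn11, the tight-junction protein of myelin, had 78.0 to 95.2 CPM at 6 months and 92.0 to 118 CPM at 2 months (-0.25 ± 0.05, adjusted p = 0.0795). In contrast, Anln, an actin-binding scaffold of myelin, had 27.5 to 38.6 CPM at 6 months and 22.7 to 29.7 CPM at 2 months (0.24 ± 0.07, adjusted p = 0.39). Without females 1 and 2 of 2 months, Mog was called, at -0.24 (adjusted p = 0.0259).

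Marcksl1, an actin-binding protein abundant in growing axons (ENSMUSG00000047945, chr4:129513581-129515985), fell to 38.4 to 48.5 CPM (median 42.6) at 6 months, against 46.6 to 76.3 CPM (median 55.0) at 2 months. Of the older libraries, 7 lay below all younger ones, and female 2 of 2 months was the highest library. The log2 change was -0.45 ± 0.08 (adjusted p = 0.0397), and -0.37 (adjusted p = 0.0272) without females 1 and 2 of 2 months. Leaving out single libraries kept the call in 3 of 16 fits, with log2 changes from -0.49 to -0.38 and adjusted p from 0.013 to 0.127. It was the only called gene among 16 tested markers of immature neurons, of which 15 had a negative change, with a median of -0.138.

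At an unadjusted p under 0.05, 6 of these 16 markers were lower and 0 higher, against 3.65% and 3.73% of all genes. Without females 1 and 2 of 2 months, 6 were lower and 0 higher, with a median of -0.116. Dpysl3, a microtubule-associated protein of growth cones, had 38.5 to 47.8 CPM at 6 months and 46.4 to 56.6 CPM at 2 months. Its log2 change was -0.24 ± 0.05 (adjusted p = 0.157), and -0.28 (adjusted p = 0.015) without females 1 and 2 of 2 months. Basp1, a membrane protein of axon ends, had a log2 change of -0.19 ± 0.05, Sox4, a transcription factor of newborn neurons, -0.26 ± 0.10, Draxin, an axon guidance ligand, -0.38 ± 0.15, and Stmn2, a tubulin-binding protein, -0.14 ± 0.05. Dcx, which marks migrating neurons, had -0.07. Female 2 of 2 months was the highest library for Basp1 and Stmn2, at 424 and 384 CPM. The summed level of the list ran from 2050 to 2140 CPM at 6 months and from 2110 to 2880 CPM at 2 months.

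Top2a, the topoisomerase of dividing cells (ENSMUSG00000020914, chr11:98992943-99024189), had the lowest change of all called genes. It was at 0.787 to 1.74 CPM (median 0.949) at 6 months and 1.54 to 2.47 CPM (median 1.89) at 2 months. Of the older libraries, 7 stood below all younger ones, and female 2 of 6 months, at 1.74 CPM, lay within their range. The log2 change was -0.85 ± 0.16 (0.553-fold, adjusted p = 0.0397). Leaving out single libraries, it stayed between -0.98 and -0.79 and was called in 3 of 16 fits, with adjusted p from 0.00695 to 0.12.

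It was the only called one of 19 tested cell cycle genes, whose median was -0.149, with 15 negative. At an unadjusted p under 0.05, 5 were lower and 0 higher, against 3.65% and 3.73% of all genes. Without females 1 and 2 of 2 months, 4 were lower and 0 higher, with a median of -0.108. Mki67, a protein of dividing nuclei, had 1.45 to 2.11 CPM at 6 months and 1.71 to 2.76 CPM at 2 months (log2 change -0.37 ± 0.11, adjusted p = 0.457). Kif11, a spindle motor, had 1.17 to 1.87 CPM at 6 months and 1.68 to 2.11 CPM at 2 months (-0.34 ± 0.10, adjusted p = 0.446). Rrm2, a subunit of ribonucleotide reductase, had 0.797 to 1.32 CPM at 6 months and 1.05 to 2.04 CPM at 2 months (-0.51 ± 0.16, adjusted p = 0.487). In contrast, Mcm2, Mcm3 and Mcm4 of the replicative helicase had log2 changes of 0.00, 0.11 and 0.06.

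The promoters of these 4 cell cycle genes are shown because they had the smallest p-values of their list. Each is the RefSeq window on GRCm38.p6 from 250 bases before the transcription start to 50 bases after it, at chr11:99024140-99024439 (minus strand) for Top2a, chr7:135716330-135716629 (minus strand) for Mki67, chr19:37376132-37376431 (plus strand) for Kif11 and chr12:24708004-24708303 (plus strand) for Rrm2. Sequences run 5′ to 3′ on the gene's strand, and capitals mark the CCAAT box, as CCAAT or as ATTGG, its form on the other strand.
Top2a: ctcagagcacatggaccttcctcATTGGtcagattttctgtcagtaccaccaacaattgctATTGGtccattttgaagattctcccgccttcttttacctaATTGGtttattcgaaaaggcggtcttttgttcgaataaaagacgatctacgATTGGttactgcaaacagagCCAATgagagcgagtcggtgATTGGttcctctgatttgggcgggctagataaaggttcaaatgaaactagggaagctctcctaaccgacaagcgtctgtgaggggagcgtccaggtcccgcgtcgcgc
Mki67: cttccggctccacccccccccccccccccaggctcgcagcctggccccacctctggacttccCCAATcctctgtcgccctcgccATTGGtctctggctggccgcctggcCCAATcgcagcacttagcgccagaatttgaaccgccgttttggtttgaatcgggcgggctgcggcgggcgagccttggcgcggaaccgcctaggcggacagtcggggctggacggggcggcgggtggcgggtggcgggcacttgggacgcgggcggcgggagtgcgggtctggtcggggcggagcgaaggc
Kif11: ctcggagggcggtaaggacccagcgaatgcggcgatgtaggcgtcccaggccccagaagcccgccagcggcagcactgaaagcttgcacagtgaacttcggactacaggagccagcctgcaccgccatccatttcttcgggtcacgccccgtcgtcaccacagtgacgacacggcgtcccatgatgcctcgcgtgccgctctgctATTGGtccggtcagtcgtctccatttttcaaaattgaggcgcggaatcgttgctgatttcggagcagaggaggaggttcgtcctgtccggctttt
Rrm2: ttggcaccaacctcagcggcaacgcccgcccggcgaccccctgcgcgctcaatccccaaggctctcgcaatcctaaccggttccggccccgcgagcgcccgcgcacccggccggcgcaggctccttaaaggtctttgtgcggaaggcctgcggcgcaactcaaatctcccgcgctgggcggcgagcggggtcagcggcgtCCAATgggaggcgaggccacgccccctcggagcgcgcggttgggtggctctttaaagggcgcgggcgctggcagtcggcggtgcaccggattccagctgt
The Top2a window held 6 such boxes, 1 as CCAAT and 5 as ATTGG, while that of Mki67 held 3 and those of Kif11 and Rrm2 held 1 each. A match was found in 14 of the 17 tested cell cycle genes with a promoter in the RefSeq table (82.4%) and in 37.4% of all 32851 promoters. Windows with 5 or more matches made up 0.27% of all promoters. A match of letters describes the window and does not show that a factor binds there.

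The other genes that fell were Met, Gpx8 and Rnf122. Met, the receptor of hepatocyte growth factor, found on developing projection neurons (ENSMUSG00000009376, chr6:17463800-17573980), had 3.93 to 6.65 CPM (median 5.46) at 6 months and 6.28 to 10.5 CPM (median 8.58) at 2 months. Only female 2 of 6 months, at 6.65 CPM, lay above the lowest younger library, which was female 2 of 2 months. Its log2 change was -0.66 ± 0.11 (0.633-fold, adjusted p = 0.0158), and the call was lost without female 3 of 2 months or female 1 of 6 months (adjusted p from 0.00624 to 0.0505 over single libraries left out).

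Gpx8, a peroxidase of the endoplasmic reticulum (ENSMUSG00000021760, chr13:113042753-113046410), had 1.8 to 2.83 CPM (median 2.07) at 6 months and 3.06 to 4.45 CPM (median 3.40) at 2 months, with no overlap. On the log2 scale it changed by -0.68 ± 0.10 (0.624-fold, adjusted p = 0.0121). Rnf122, a ubiquitin ligase (ENSMUSG00000039328, chr8:31111820-31131482), had 3.04 to 4.10 CPM (median 3.57) at 6 months and 4.40 to 5.13 CPM (median 4.80) at 2 months, also without overlap. It changed by -0.46 ± 0.08 (adjusted p = 0.0158).

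Medians of the immune lists lay above 0, with few genes past the threshold. Of 25 tested interferon-response genes, 0 were called, 7 were higher and 0 lower at an unadjusted p under 0.05, and the median was 0.11. Without females 1 and 2 of 2 months, 5 were higher and 0 lower at that p, and the median was 0.089. In Q20 mice of the same ages, 4 of these genes were called higher and 3 lower, with a median of 0.003. The shares over all genes tested in Q20 were 18.6% higher and 16.6% lower. Nuclear long non-coding RNAs, whose share can move with RNA quality, also had 6 positive changes among 7 genes in WT, with a median of 0.097, and their part in the immune values was not tested. Ifi27 had 19.3 to 24.6 CPM at 6 months and 16.2 to 23.1 CPM at 2 months, with a log2 change of 0.24 ± 0.06 (adjusted p = 0.317). It was the 1 interferon-response gene called without females 1 and 2 of 2 months, at 0.28 ± 0.05 (adjusted p = 0.0224). Oas2, which makes the activator of RNase L, had 0.802 to 1.54 CPM at 6 months and 0.504 to 1.03 CPM at 2 months (0.50 ± 0.16, adjusted p = 0.487). In contrast, Mx2 and Ifi44 had log2 changes of -0.21 and -0.19.

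Of 14 tested genes of complement and reactive glia, C4b was the only one called. At an unadjusted p under 0.05 stood also Gpnmb, a glycoprotein of activated phagocytes, with 2.57 to 3.85 CPM at 6 months and 1.92 to 3.05 CPM at 2 months (log2 change 0.46 ± 0.10, adjusted p = 0.157), and Osmr, the oncostatin M receptor (0.38 ± 0.11, adjusted p = 0.404). Gfap, the filament protein of reactive astrocytes, had a log2 change of 0.09, and C3, the central complement component, -0.18. Of the 15 antigen presentation genes, 14 had a positive change, with a median of 0.126, and 0 reached an unadjusted p of 0.05. Without females 1 and 2 of 2 months, 5 did, and 1 of them, Tap2, was called (0.25 ± 0.05, adjusted p = 0.0411). Over all genes, 2149 of 16715 reached an unadjusted p of 0.05 in that fit, against 1225 of 16595 with all 16 libraries. H2-K1, a class I molecule, had 23.6 to 35.5 CPM at 6 months and 22.8 to 37.4 CPM at 2 months.

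The 20 microglial markers had a median of 0.075 and 0 called genes. Ctss, a protease of their lysosomes, had 64.0 to 75.4 CPM at 6 months and 52.2 to 71.2 CPM at 2 months, with a log2 change of 0.20 ± 0.06 (adjusted p = 0.404). Without females 1 and 2 of 2 months, a fit added after the values were seen, 4 of the 20 were called, against 59 of all 16715 genes. These 4 were Ctss, at 0.22 (adjusted p = 0.0272), and the subunits of complement C1q. The C1q values were 0.26 for C1qa (adjusted p = 0.0135), 0.23 for C1qc (adjusted p = 0.015) and 0.19 for C1qb (adjusted p = 0.0224). With all 16 libraries, C1qa, C1qb and C1qc had log2 changes of 0.13, 0.10 and 0.10. In females alone C1qa was at -0.041 and C1qc at -0.017, neither of them called. The summed level of the microglial markers was 661 to 731 CPM at 6 months and 619 to 741 CPM at 2 months. The 16 astrocyte markers had a median of 0.051 and 0 called genes.

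The 21 beta protocadherins had a median of 0.074, with 1 called gene, Pcdhb9, and 1 more, Pcdhb5, at an unadjusted p under 0.05. Pcdhb5 had 5.55 to 6.91 CPM at 6 months and 4.88 to 6.29 CPM at 2 months, with a log2 change of 0.16 ± 0.07 (adjusted p = 0.642). The others ranged from -0.16 for Pcdhb10 to 0.22 for Pcdhb2. No gene was called among the 25 nuclear genes of the respiratory chain, of which 24 had a negative change (median -0.095), or among the 25 ribosomal protein genes (median -0.06). Without females 1 and 2 of 2 months these medians were -0.023 and 0.038.

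**Figure D3:**
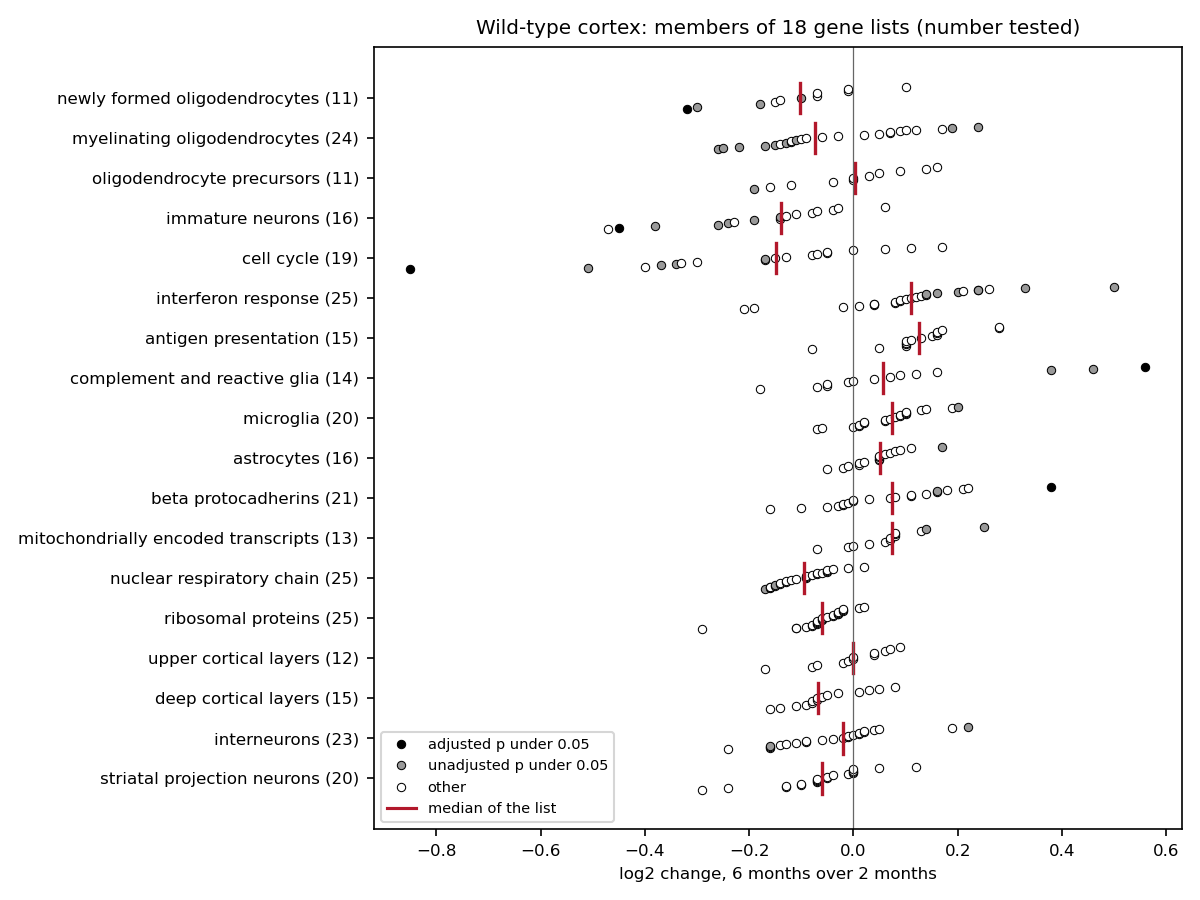
Log2 change (6 months over 2 months, horizontal axis) of the tested members of 18 gene lists, with the number tested in brackets, called genes in black, those at an unadjusted p under 0.05 in grey and a red line at the median. Immature neuron and cell cycle genes centre at -0.138 and -0.149, interferon and antigen presentation genes at 0.11 and 0.126, against -0.001 for all genes.

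Neuronal identity lists had no called gene. The medians were 0.00 for 12 upper-layer markers, -0.067 for 15 deep-layer markers and -0.019 for 23 interneuron markers (-0.019, -0.031 and -0.006 in the same order without females 1 and 2 of 2 months), and among layer markers 0 genes reached an unadjusted p of 0.05. None of the 22 glutamate receptor, 16 GABA or 23 potassium channel genes was called, nor any of 19 immediate early genes or 25 cholesterol synthesis genes. Markers of other tissues that a dissection could include were also without a called gene. The 20 markers of striatal projection neurons summed to 693 to 1410 CPM at 6 months and 974 to 1310 CPM at 2 months, and the 15 choroid plexus markers to 236 to 309 CPM at 6 months and 237 to 384 CPM at 2 months. Ttr, made by the choroid plexus, was at 6.43 to 46.3 CPM at 6 months and 5.55 to 84.1 CPM at 2 months. In all, 5 of the 42 lists held a called gene, and 16 held no gene at an unadjusted p under 0.05. Among single genes of other lists, Eda2r, a p53-induced receptor, had 0.337 to 0.605 CPM at 6 months and 0.239 to 0.361 CPM at 2 months (log2 change 0.58 ± 0.17, adjusted p = 0.457), and Vwf, a clotting factor of endothelium, 20.4 to 35.3 CPM at 6 months and 17.9 to 26.4 CPM at 2 months (0.34 ± 0.09, adjusted p = 0.317). Htt itself had 193 to 205 CPM at 6 months and 132 to 218 CPM at 2 months (0.05 ± 0.07, adjusted p = 0.856).

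Whether the change with age differed between the sexes was tested as an interaction in the same 16 libraries. The library names also hold a code that is its own for each age and sex. Whatever this code marks cannot be told apart from the age and sex of the mice. No gene was called (0% of 16595) in edgeR, nor in DESeq2, and 534 genes (3.22%) had an unadjusted p under 0.05. All 14 called genes changed in the same direction in females alone and in males alone. They were chosen by the test of both sexes together in these libraries, so their shared direction is no separate evidence. In edgeR 0 genes were called in either sex, where 4 libraries stood against 4. At an unadjusted p under 0.05 stood 724 genes in females and 988 in males. Il33 had the least alike pair of values for its error: the log2 change was 0.46 ± 0.07 in females and 0.24 ± 0.06 in males, a difference of 0.22 ± 0.10 (unadjusted p = 0.0442, adjusted p = 0.976). Top2a changed by -0.67 ± 0.25 in females and -1.05 ± 0.18 in males, a difference of 0.38 ± 0.31 (adjusted p = 0.976). C4b, at 0.55 ± 0.15 in females and 0.57 ± 0.12 in males, and Pcdhb9, at 0.39 ± 0.09 in females and 0.37 ± 0.08 in males, had the closest values among the genes that rose.

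Heterozygous Q20 cortex of the same ages gave a comparison with none of these libraries. There, 5837 of 16580 genes were called, 3078 higher (18.6%) and 2759 lower (16.6%), with a biological coefficient of variation of 0.077. The Q20 6-month libraries bear names of another form than the Q20 2-month and all WT libraries, per the labels, so that in Q20 whatever that form marks cannot be told apart from age. At 2 months, the opening numbers of the Q20 and WT libraries lie in the same run, and the codes after them are shared. Whatever these mark is common to both comparisons, and its part in the shared directions was not tested. All 14 genes changed in the same direction in Q20, and 13 were called there. Top2a changed by -0.97 ± 0.17 in Q20, Met by -0.69 ± 0.08, Gpr17 by -0.31 ± 0.07, C4b by 0.49 ± 0.07 and Spag6 by 0.67 ± 0.10. Of the genes higher in WT at an unadjusted p under 0.05 and tested in Q20, 456 of 610 (74.8%) had the same direction in Q20, and of those lower 465 of 599 (77.6%), against 55.6% of all 16458 genes tested in both.

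Gatm was the exception among the 14. In Q20 it was at 97.4 to 107 CPM at 6 months and 89.9 to 109 CPM at 2 months, with a log2 change of 0.01 ± 0.04 (adjusted p = 0.82). The WT change exceeded that in Q20 by 0.25 ± 0.05 (interaction, adjusted p = 0.00137). At 10 months the level was 126 to 144 CPM in WT and had a mean of 140 ± 7.11 CPM (SD, n = 8) in Q20.

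**Figure D4:**
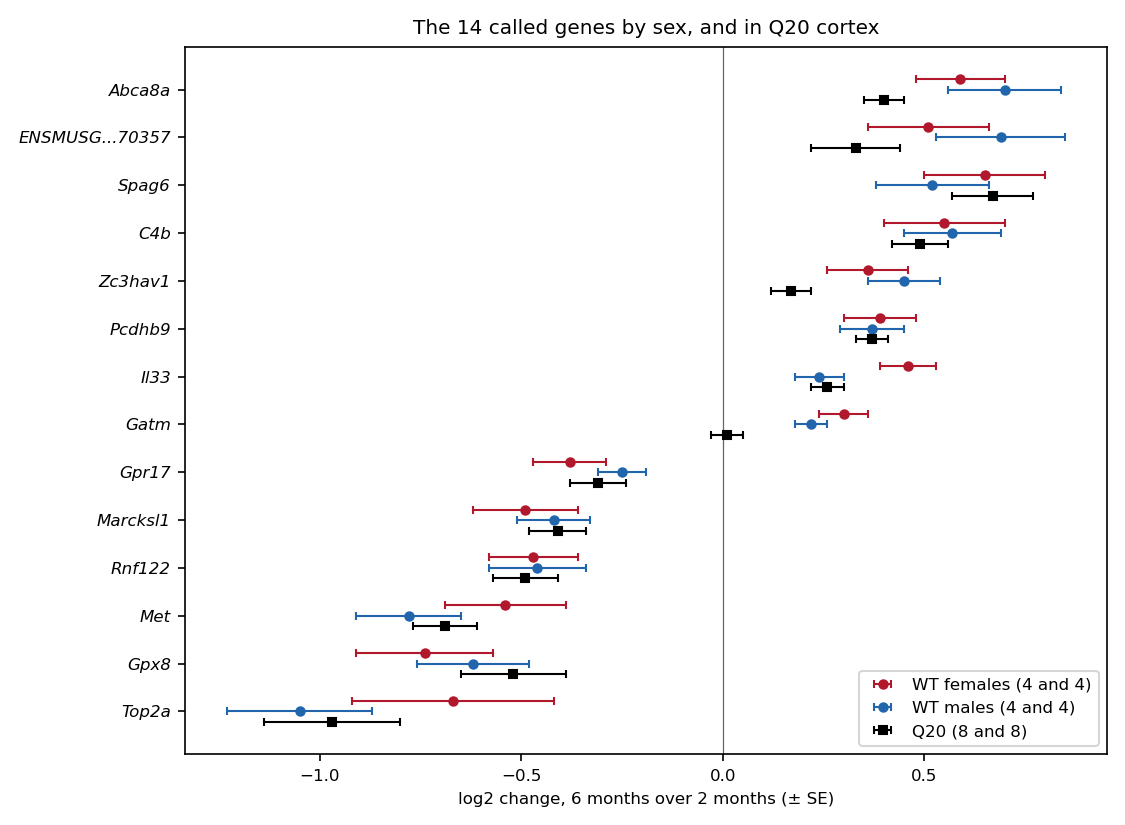
Log2 change (6 months over 2 months) ± SE of the 14 called genes in WT females (red) and WT males (blue), 4 libraries against 4, and in Q20 mice (black squares), 8 against 8. All values lie on the same side of 0 for each gene, and Gatm in Q20 lies at 0.01. The genes were chosen by the test of both WT sexes together.

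The interaction between genotype and age was called for 1815 of 17046 genes (10.6%), and in 1109 of them the change was lower in WT. Under limma on log2 FPKM with a pseudocount of 0.1 it was lower in WT for 1247 of 1650 called genes. Of the 14 genes, Gatm and Zc3hav1 were among them, and the difference for Zc3hav1 was 0.23 ± 0.08 (adjusted p = 0.0434), with a log2 change of 0.41 in WT and 0.17 in Q20. This difference was not called without a filter on low counts (adjusted p = 0.106), with the replicate number as a block (0.0812), without females 1 and 2 of 2 months (0.0805) or under limma on log2 FPKM with a pseudocount of 0.1 (0.12) or 1 (0.123), where it was 0.12. Of 13 transcripts of the mitochondrial genome, 0 were called in WT and 11 were called lower in Q20, where 16.6% of all genes were. A single one, mt-Nd4l, was called higher in WT without females 1 and 2 of 2 months (0.21 ± 0.04, adjusted p = 0.0388). The transcript mt-Atp8, of an ATP synthase subunit, was at 1680 to 1890 CPM at 6 months and 1330 to 1960 CPM at 2 months in WT, and at a mean of 832 CPM at 6 months and 1650 CPM at 2 months in Q20. The WT change exceeded the Q20 change by 1.13 ± 0.09 (adjusted p = 1.7e-09).

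In single list genes the genotypes differed in either direction. Trim30a, an interferon-induced protein, changed by 0.24 in WT and -0.26 in Q20 (difference 0.50 ± 0.12, adjusted p = 0.00637). Tap2, which carries peptides to class I molecules, changed by 0.15 in WT and 0.54 in Q20 (difference -0.39 ± 0.09, adjusted p = 0.00668). Of all genes tested in Q20, 18.6% were called higher and 16.6% lower, which is the background for the Q20 counts of list members here. In Q20, 8 of 15 antigen presentation genes were called higher and 0 lower. In WT 0 of 15 were called with all 16 libraries and 1, Tap2, without females 1 and 2 of 2 months. The 20 tested cell cycle genes of Q20 held 8 called lower and 1 higher, with a median of -0.203, and the 16 immature neuron markers 5 lower and 2 higher, with a median of -0.146.

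Levels at 10 months are given as a description, since the 10-month libraries were compared with no other group. Mean Top2a was 1.90 ± 0.296, 1.06 ± 0.334 and 0.563 ± 0.082 CPM (SD, n = 8 each) at 2, 6 and 10 months in WT. In Q20 the means were 1.83 ± 0.309, 0.956 ± 0.301 and 0.574 ± 0.161 CPM. Gpr17, Marcksl1 and Rnf122 ran the same way in WT, with means of 52.2, 42.0 and 34.2 CPM for Gpr17, 58.1, 42.6 and 32.3 CPM for Marcksl1 and 4.78, 3.47 and 2.86 CPM for Rnf122 at 2, 6 and 10 months. Met had 8.43, 5.34 and 5.08 CPM, so that the means at 6 and 10 months lay within their SDs of 0.892 and 1.07.

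Among the genes that rose, Spag6 had means of 2.38 ± 0.294, 3.59 ± 0.593 and 5.71 ± 0.672 CPM at 2, 6 and 10 months in WT, and Il33 45.8 ± 3.20, 58.7 ± 4.77 and 65.6 ± 3.87 CPM. Pcdhb9 had 10.8, 14.1 and 16.3 CPM. C4b did not run one way, at 19.3 ± 3.14, 28.5 ± 4.95 and 25.4 ± 3 CPM in WT and 21.2 ± 1.94, 30 ± 3.45 and 26.0 ± 5.11 CPM in Q20. Zc3hav1 had 5.61, 7.45 and 7.06 CPM in WT. Mean Mog was 52.9 ± 4.58, 44.2 ± 3.63 and 49.0 ± 3.45 CPM in WT, lowest at 6 months.

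**Figure D5:**
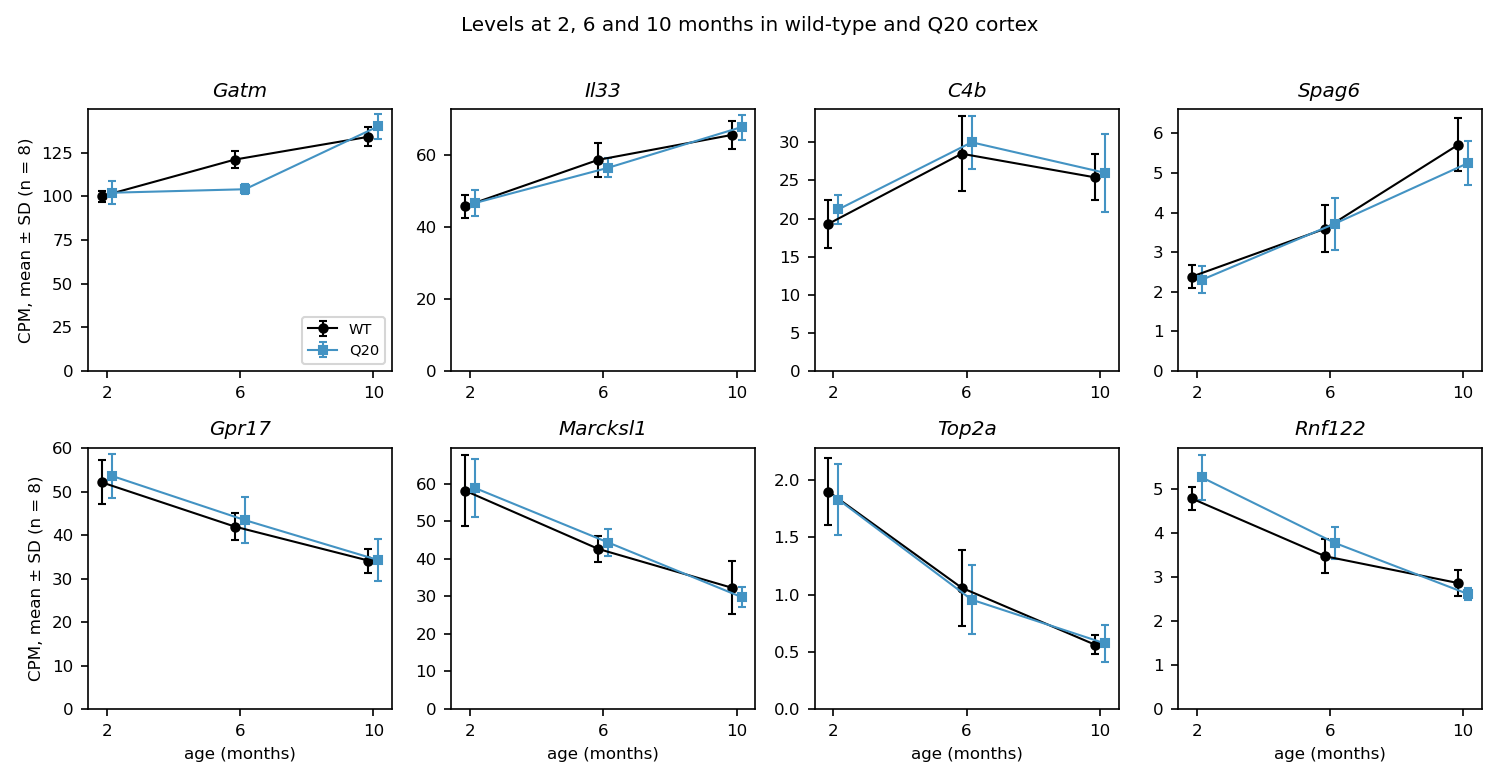
Mean CPM ± SD (n = 8 libraries) of 8 called genes at 2, 6 and 10 months in WT (black circles) and Q20 cortex (blue squares). Top2a in WT runs through 1.90, 1.06 and 0.563 CPM, C4b is highest at 6 months with 28.5 CPM, and Gatm of Q20 has 102, 104 and 140 CPM.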

How the data were processed

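PolyA-selected cortex RNA of 16 WT libraries was compared, beside 8 WT libraries of 10 months and 24 Q20 libraries. The authors deposited estimated counts per gene, not scaled to a common total, of which 17.8% were not whole, and FPKM values, relative to gene length and library total. The submitters' processing notes list CASAVA 1.8.2. Aligner, quantification tool, genome build and annotation were not given in the sources used here. Of 39179 gene IDs, 37607 had a symbol in GENCODE M21, and the others held 0.32% of counts.

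Counts were rounded to whole numbers, filtered with filterByExpr (minimum count 10, minimum total 15), scaled by TMM and tested with two-sided quasi-likelihood F tests of edgeR 4.0.16, with sex as a covariate and Benjamini-Hochberg adjustment over all genes tested (threshold 0.05). SE is the estimate over the square root of F. CPM levels were scaled over the 48 WT and Q20 libraries. WT at 6 and 2 months were fitted alone; the sex difference was an interaction in the same libraries, the Q20 comparison a fit of 16 Q20 libraries and the genotype difference an interaction over 32. The WT comparison of ages was checked for recovery of set fold changes on counts simulated from the 16 WT libraries. The other comparisons were not simulated. Totals of 29338689 to 44472178 per WT library mean that errors rest on the spread between libraries, and no library pair within a group differed by less than counting error.

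The 42 gene lists, the naming rule and the comparisons were chosen with earlier results of these data known. Named were called genes by p and by size, up to 4 genes of each list by p, Htt, Xist and Ddx3y, and genotype differences by p; clone-named models and IDs without a symbol were left out of the rule, and 2 genotype differences are not reported here. Outside it, ENSMUSG00000070357, C1qa, C1qb, C1qc, the non-overlapping genes Plekhb2, Exoc3l4, Cbx7 and Grid2ip, the liver transcripts and other list genes given as log2 changes were chosen after their values were seen, and so was the fit without females 1 and 2 of 2 months. Alternatives were DESeq2 1.42.0, its size factors, no filter, a block by replicate number, no term for sex, limma 3.58.1 on log2(FPKM + 0.1) and log2(FPKM + 1) where the mean FPKM reached 0.1, each sex alone, wider fits and leaving out each library. R 4.3.3 and Python 3.11.15 were used.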

Additional observations from a re-analysis of the deposited data

Results flagged for a closer look

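In 30 groups of 8 libraries, the 14 called genes and Htt at both ages, the gap of the highest or lowest library to its neighbour, on the log2 scale and as a share of the group's range, was compared with the 95% critical value of 0.526; chance alone flags about 1 group in 20. Pcdhb9 was lowest in male 3 of 2 months, at 9.02 CPM, with the other 7 at 10.5 to 11.9 CPM. C4b was highest in female 1 of 2 months, at 26.8 CPM, with the other 7 at 16.7 to 19.5 CPM; this library held the liver transcript Alb at 136 CPM, and the part of liver RNA was not tested. Htt was lowest in female 2 of 2 months, at 132 CPM, with the other 7 at 178 to 218 CPM.

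The change with age differed between WT and Q20 cortex, by the interaction test, for 19 of the named genes. Over all 17046 genes tested the share was 10.6%, and some of the 19 were named for their small p in this test. The count therefore says nothing about the named genes as a set. Differences are those of WT minus Q20 on the log2 scale. Among the called genes they were 0.25 for Gatm and 0.23 for Zc3hav1. Transcripts of the mitochondrial genome had positive differences, with 1.13 for mt-Atp8, 0.87 for mt-Nd4l, 0.75 for mt-Nd3, 0.36 for mt-Nd4 and 0.28 for mt-Co1. The ribosomal protein gene Rps16 differed by -1.56, with a WT log2 change of -0.29. In immune genes the difference was 0.50 for Trim30a and -0.39 for Tap2. Glial and neuronal genes with a difference were Aqp4, the astrocyte water channel, at 0.31, Bcan, a proteoglycan of perineuronal nets, at -0.20, Gabrg1, a GABA receptor subunit, at 0.31 and Grm2, a glutamate receptor, at -0.39. The stress genes Chac1 and Phlda3 had differences of -0.43 and -0.32. Other genes with small p-values and the lower change in WT were Ddx54 at -0.52, Chchd6 at -0.54 and Nr1h2 at -0.50. The Q20 6-month libraries bear names of another form, and what that form marks cannot be told apart from age in Q20.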

How the results depend on the processing

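The count of 14 genes called in WT became 36 with DESeq2, 7 with limma on log2(FPKM + 0.1), 30 in a fit of the 24 WT libraries and 52 in a fit of 48 WT and Q20 libraries, and 0 in females or males alone, where 8 libraries remained in the test. It was 59 without females 1 and 2 of 2 months, a fit added after the values were seen, and 7 to 24 when single libraries were left out. The highest count, 24, came without female 2 of 2 months, and 7 and 8 without female 3 of 2 months and female 1 of 6 months. All 14 genes kept their direction under all alternatives run. With single libraries left out, Abca8a, Gpx8, Pcdhb9, Il33, Gatm, Zc3hav1 and Rnf122 were called in all 16 fits. Of the same 16 fits, Gpr17 was called in 5, C4b in 4, and Top2a and Marcksl1 in 3 each. In the 12 other settings, Gpx8, Pcdhb9, Il33, Gatm and Rnf122 were called in 9, and Abca8a and Zc3hav1 in 7. With the replicate number as a block, 1 gene, C4b, was called; the numbers were not taken to pair the libraries, since 2 of 8 pairs had a correlation over 0.1 (range -0.132 to 0.212) and 3 of 8 older libraries correlated best with their own number within their sex. The cause of these shifts was not tested. The counts of the sex interaction (0), of Q20 and of the genotype interaction stayed within 1.5 times under the alternatives run.

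Over 73 named genes and the 19 genotype differences, 2011 refitted values kept direction and side of the threshold, 125 lost and 34 gained a call, and 5 changed sign: Htt, at -0.026 without females 1 and 2 of 2 months, -0.013 without female 2 (the range was -0.013 to 0.078 over single libraries left out) and -0.023 in males alone, and in females alone C1qa at -0.041 and C1qc at -0.017. None of these was called. Genes near 1 CPM, such as Top2a, rest on few reads per library.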

Other observations

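Of 17 circadian clock genes, 14 had a positive log2 change, with a median of 0.086. Bhlhe41, a repressor of the clock, had 32.4 to 46.2 CPM at 6 months and 32.6 to 41.1 CPM at 2 months (log2 change 0.16 ± 0.06, adjusted p = 0.611). At an unadjusted p under 0.05 stood 3.73% of all genes tested as higher and 3.65% as lower. Of 29 genes of collagens and basement membrane, 3 were higher and 1 lower at that threshold. The higher ones were P4ha2, a collagen hydroxylase, at 0.23 ± 0.08, Col6a2 at 0.17 ± 0.06 and Lama2, a laminin chain, at 0.15 ± 0.06. The lower one was Col3a1, a fibrillar collagen, at -0.35 ± 0.16, with 2.16 to 4.31 CPM at 6 months and 2.4 to 5.6 CPM at 2 months. Neat1, a nuclear long non-coding RNA that builds paraspeckles, had 144 to 192 CPM at 6 months and 119 to 161 CPM at 2 months (0.23 ± 0.06, adjusted p = 0.374). In Q20 it changed by 0.27 (adjusted p = 0.00092).

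Of the 59 genes called without females 1 and 2 of 2 months, several have known places in neuronal contacts or in glia; they were chosen after their values were seen. Lower at 6 months in that fit were Lrrc4c, a synaptic adhesion molecule (-0.16 ± 0.03, adjusted p = 0.015), Nectin3, a cell adhesion protein (-0.20 ± 0.03, adjusted p = 0.015), Marcks, the relative of Marcksl1 (-0.17 ± 0.03, adjusted p = 0.0321), and Vldlr, a reelin receptor (-0.14 ± 0.03, adjusted p = 0.0371). Higher were Aldh2 (0.15 ± 0.03, adjusted p = 0.0236) and Gstm1 (0.14 ± 0.03, adjusted p = 0.0388), enzymes of detoxification, Ftl1, the light chain of the iron store ferritin (0.16 ± 0.03, adjusted p = 0.045), and H2-T22, a non-classical class I molecule (0.21 ± 0.04, adjusted p = 0.0342).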
